A study of Mus musculus with 8 samples.

Results

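Cytoplasmic ribosomal proteins are the protein parts of the ribosome, whose large subunit joins amino acids and whose small subunit reads the mRNA. Their genes are among the most highly expressed of any cell, and in mammals their output is known to be kept near equal amounts and to follow growth. Many of their mRNAs begin with a C and a run of pyrimidines, the 5′ terminal oligopyrimidine (TOP) tract, through which the mTOR pathway is known to set their translation. A few have paralogs, some of them known from mouse testis or muscle. The genes described here were chosen by symbol from a table of whole testes: Rpl or Rps with a number and at most 1 letter, plus Rpsa, Rplp0, Rplp1 and Rplp2, without kinases and pseudogenes. Of 80 symbols that matched, 79 had a mean of at least 1 RPKM (reads scaled by transcript length and library size) in either group, out of 15885 genes at that level and 24582 symbols in all. They comprised 48 large-subunit and 31 small-subunit genes. The symbol below the limit was Rpl3l, a paralog of Rpl3 known from heart and skeletal muscle.

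RNA sequencing had been run on testes at postnatal day 5 in 4 samples labelled Dio3KO and 4 wild-type samples, all from mice on a shared 129/SVJ background. The Dio3 product is a deiodinase that breaks down thyroid hormones. The study's title asks about genes under their control in the newborn testis. The authors deposited 1 mean RPKM and 1 coefficient of variation (CV, the SD divided by the mean) per transcript and group, so values of single samples were not analysed here, the depth is unknown, and whether groups overlapped sample by sample was not seen. Which part of Dio3 was altered is not in the labels. Dio3 itself had a mean of 2.95 RPKM (CV 0.29) in the Dio3KO-labelled group and 0.52 RPKM (CV 0.20) in wild type, and the authors' deposited table gave it an adjusted p of 0.0408. Its level therefore does not check the label, on which every direction given here depends. The labels name testis as the tissue but hypothalami in the extraction text. Of 12 markers of the hypothalamus 11 were in the table, with means of 0.01 to 1.05 RPKM in Dio3KO-labelled and 0.03 to 1.89 RPKM in wild-type samples, whereas the Sertoli cell marker Amh stood at 127 RPKM in the Dio3KO-labelled group and 284 RPKM in wild type. "Fell" and "rose" are used only for genes to which the authors' deposited table gave an adjusted p under 0.05, and log2 ratios are of the group means, Dio3KO-labelled over wild type, each with 0.5 RPKM added. Their standard errors (SE) were computed from the CVs with 4 samples per group.

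The sequences that bear on the results are those of the TOP tract at the annotated start and those of paralogs beside the genes they resemble. Each window below holds 10 bases before and 20 bases from the RefSeq start (GRCm38.p6), 5′ to 3′ on the gene's strand, with the pyrimidine run that begins at the start in capitals. The first 5, all of the small subunit, are the genes in which RefSeq and GENCODE M21 both place a C and at least 4 pyrimidines at a start, and the last 3 are paralogs without it.
Rps15a, chr7:118116128-118116157, minus strand: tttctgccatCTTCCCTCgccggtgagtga
Rps18, chr17:33955646-33955675, minus strand: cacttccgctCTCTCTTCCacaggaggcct
Rps10, chr17:27635225-27635254, minus strand: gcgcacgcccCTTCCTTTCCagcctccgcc
Rps27, chr3:90213629-90213658, minus strand: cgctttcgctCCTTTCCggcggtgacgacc
Rps21, chr2:180257369-180257398, plus strand: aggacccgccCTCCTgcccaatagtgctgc
Rps27l, chr9:66946076-66946105, plus strand: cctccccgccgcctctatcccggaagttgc
Rpl39l, chr16:10170218-10170247, plus strand: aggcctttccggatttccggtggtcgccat
Rpl10l, chr12:66284382-66284411, minus strand: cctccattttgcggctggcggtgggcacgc

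Nearly every ribosomal protein gene was lower in Dio3KO-labelled testes, by a similar factor. Of the 79 genes, 75 fell, 0 rose and 4 did not pass, while 15.8% of all genes tested fell and 13.8% rose. The median log2 ratio was -0.42, that is 74.6% of the wild-type level, against a median of -0.05 over all genes tested. Among the 665 other genes that averaged at least 100 RPKM, as 76 of the ribosomal protein genes did, 25.4% fell and 16.8% rose, with a median of -0.08. The sum over the 79 genes was 45671 RPKM in the Dio3KO-labelled group and 60834 RPKM in wild type. That sum, with 1 transcript per gene, made 4.82% of the RPKM of all transcripts in the Dio3KO-labelled group and 5.99% in wild type. With all transcripts of the matching symbols summed as well, the share was 6.69% in the Dio3KO-labelled group and 8.32% in wild type. A limma test moderated over all 15885 genes, on the same means and CVs, called 75 of them lower and 0 higher, against 23.1% of all genes lower and 18.5% higher. Of the other genes of at least 100 RPKM it called 31.4% lower and 21.1% higher. The sum over all transcripts in the Dio3KO-labelled group was 93.3% of that in wild type. With both groups scaled to the same total over all transcripts, a shift of 0.10 on the log2 scale, the median was -0.32 and limma called 73 lower. With 1 transcript for each of the 15885 genes, the sum was 560407 RPKM in the Dio3KO-labelled group and 620273 RPKM in wild type. Scaling to these sums was not done. In bulk tissue fewer cells of a type and less RNA per cell cannot be told apart.

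**Figure D1:**
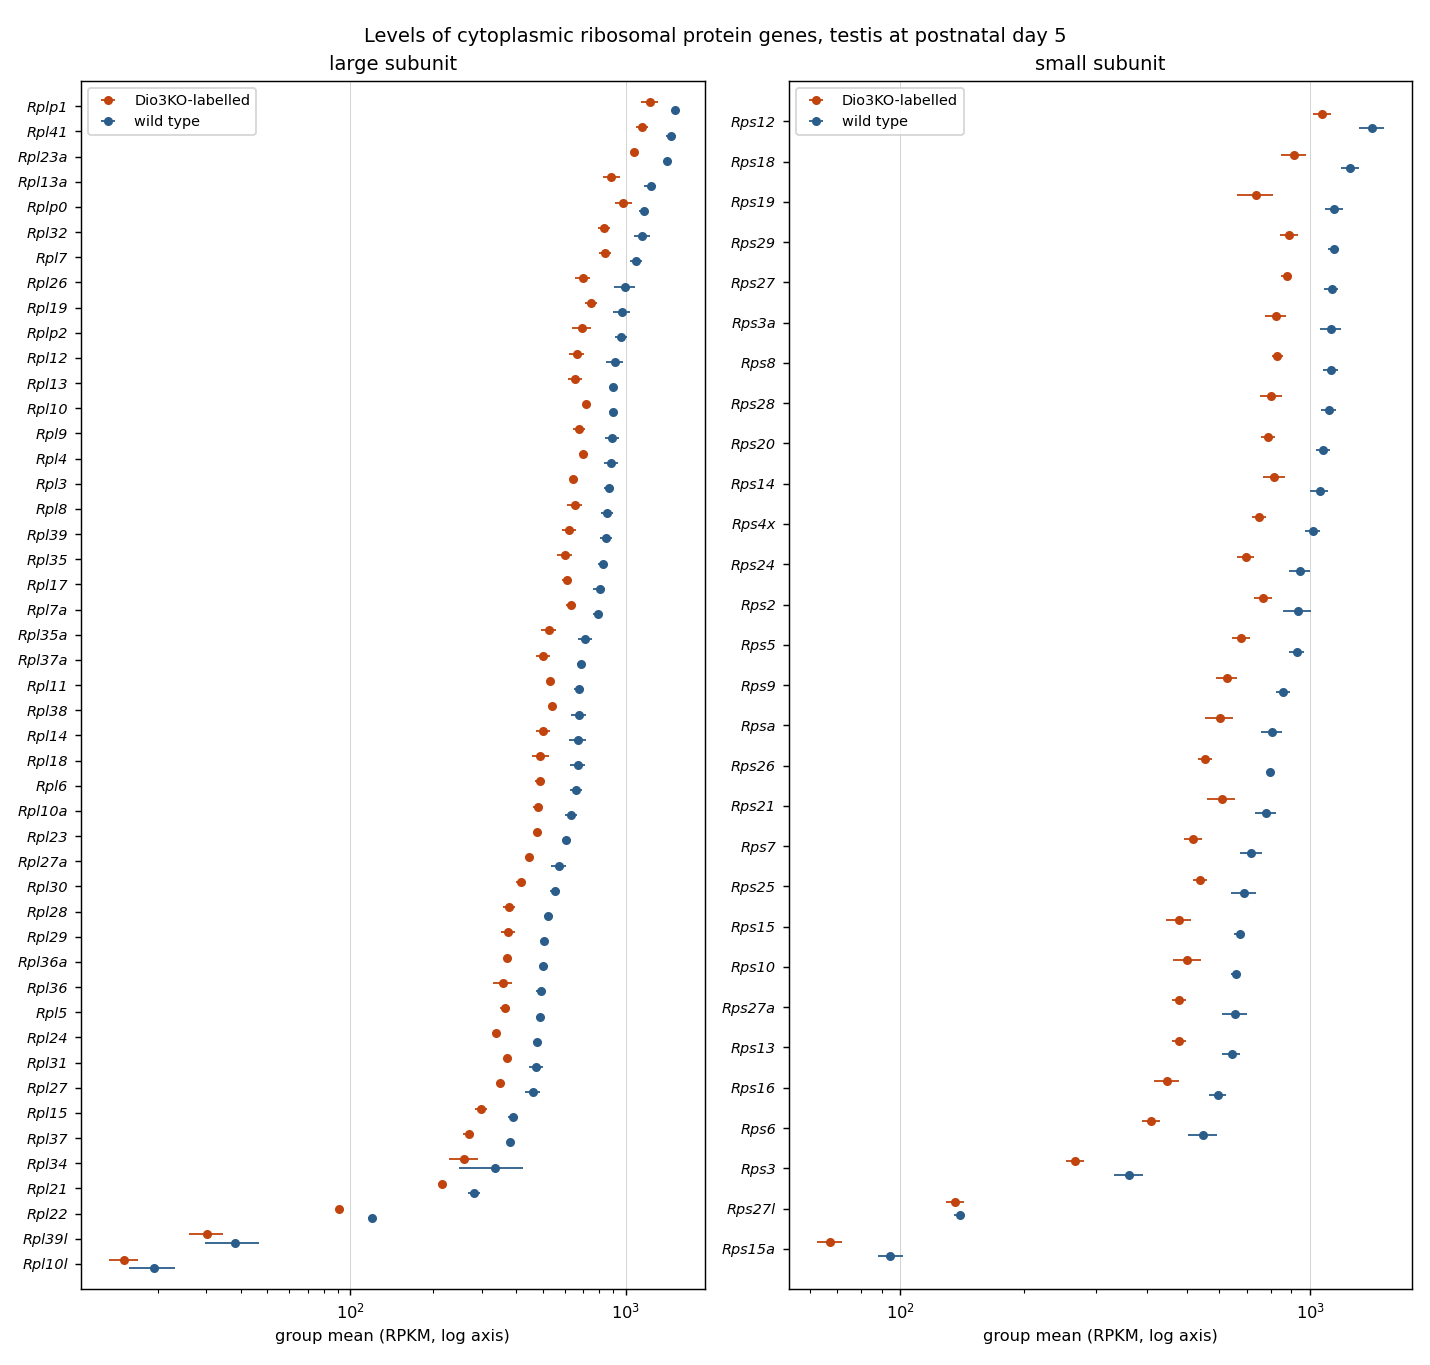
Group means of 76 of the 79 ribosomal protein genes in RPKM (log axis), Dio3KO-labelled above wild type in each row, ordered by the wild-type mean. Whiskers are the mean times the deposited CV. All points of the Dio3KO-labelled group lie left of those of wild type, with Rps27l the closest pair (136 and 140 RPKM).

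The levels differed widely between genes but kept their order. In the large subunit, Rplp1, an acidic protein of the stalk that recruits elongation factors, had the highest mean, 1226 RPKM (CV 0.07) in Dio3KO-labelled and 1509 RPKM (CV 0.01) in wild-type testes. Rpl41, the smallest ribosomal protein, had 1144 RPKM in the Dio3KO-labelled group and 1458 RPKM in wild type, and Rpl23a, at the exit of the peptide tunnel, had 1069.55 and 1414 RPKM in the same groups. In the small subunit, Rps12 led with 1068 RPKM (CV 0.05) in Dio3KO-labelled and 1416 RPKM (CV 0.07) in wild-type testes. Rps18 followed with 911 RPKM in the Dio3KO-labelled group and 1251 RPKM in wild type, and Rps29 with 887 and 1140.01 RPKM in the same groups. All of these fell. Rps15a was the least expressed small-subunit gene, at 67.3 RPKM in the Dio3KO-labelled group and 94.5 RPKM in wild type, and Rps3, which lines the entry of the mRNA channel, was also low at 267 and 362 RPKM in the same groups. RPKM is scaled to the length of a transcript, so levels set beside each other also depend on which transcript stands for each gene. Reads shared with pseudogenes and retrocopies could not be separated. Across the 79 genes the Spearman correlation of the levels of both groups was 0.99, a description over genes measured in the same samples. The replicates were close: the median CV was 0.05 in either group, and 76 genes had a CV of at most 0.10 in both.

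Within the large subunit, 45 of 48 genes fell, and the log2 ratios ran from -0.51 to -0.24 with a median of -0.40. Rpl26, a tunnel-exit protein, was lowest relative to wild type, at 697 RPKM (CV 0.06) in Dio3KO-labelled and 995 RPKM (CV 0.09) in wild-type testes, a log2 ratio of -0.51 ± 0.08 (SE, n = 4 per group), and the authors' deposited table gave an adjusted p of 0.0234. Rpl37 had 269.04 RPKM (CV 0.05) in the Dio3KO-labelled group and 381 RPKM (CV 0.02) in wild type. Rpl24, which forms a bridge to the small subunit, had 338 RPKM (CV 0.03) in the Dio3KO-labelled group and 476 RPKM (CV 0.03) in wild type, and the authors' deposited table gave an adjusted p of 0.0024, the smallest of the 79. The stalk protein Rplp2 fell to 694 RPKM in the Dio3KO-labelled group, against 965 RPKM in wild type, and Rpl28 to 377 RPKM, against 524 RPKM in wild type. The stalk proteins had different log2 ratios, a difference that was not tested. Rplp0, which anchors the stalk and was picked out here after its value was seen, had the smallest fall of the subunit, at 981 RPKM (CV 0.07) in the Dio3KO-labelled group and 1162 RPKM (CV 0.04) in wild type, a log2 ratio of -0.24 ± 0.06 (SE, n = 4 per group), and the authors' deposited table gave an adjusted p of 0.0279. After scaling both groups to the same total, limma no longer called Rplp0 (log2 ratio -0.15, adjusted p = 0.0911). Rplp1 had a log2 ratio of -0.30 and Rplp2 of -0.47.

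The large-subunit genes that did not pass were Rpl34 and the paralogs Rpl10l and Rpl39l. Rpl34 had 259 RPKM (CV 0.12) in Dio3KO-labelled and 335 RPKM (CV 0.26) in wild-type testes, a log2 ratio of -0.37 ± 0.21 (SE, n = 4 per group), and the authors' deposited table gave an adjusted p of 0.2675. Its ratio lay within the range of the other genes, and its wild-type CV was the highest of the 79. Its pseudogene row Rpl34-ps1 had the same CV in wild type and a higher one in the Dio3KO-labelled group, at 337 RPKM (CV 0.26) in the Dio3KO-labelled group and 458 RPKM (CV 0.26) in wild type.

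Within the small subunit, 30 of 31 genes fell. Their log2 ratios had a median of -0.44 and ran up to -0.03. Rps19, a gene mutated in human Diamond-Blackfan anaemia, had the lowest log2 ratio of the 79, at 737 RPKM (CV 0.10) in Dio3KO-labelled and 1145 RPKM (CV 0.05) in wild-type testes. Its log2 ratio was -0.64 ± 0.08 (SE, n = 4 per group), and the authors' deposited table gave an adjusted p of 0.0048. In GENCODE M21 (GRCm38) Rps19 (ENSMUSG00000040952.16) spans bases 24884371 to 24889806 of chromosome 7, plus strand. All 3 of its transcripts fell. So did the pseudogene row Rps19-ps3, at 125 RPKM in the Dio3KO-labelled group and 182 RPKM in wild type, and its reads may be shared with Rps19. Rps26, another gene of that human disease, had 553 RPKM (CV 0.04) in the Dio3KO-labelled group and 797 RPKM (CV 0.02) in wild type, a log2 ratio of -0.53 ± 0.03 (SE, n = 4 per group), and the authors' deposited table gave an adjusted p of 0.003. Rps15 (479 and 672 RPKM), Rps15a and Rps7 (519 and 718 RPKM; Dio3KO-labelled first in each pair) fell by 0.47 to 0.49 on the log2 scale. The smallest fall, picked out after its value was seen, was that of Rps2, at 766 RPKM (CV 0.05) in the Dio3KO-labelled group and 932 RPKM (CV 0.08) in wild type, and the authors' deposited table gave an adjusted p of 0.0412. Its log2 ratio of -0.28 lost its limma call after scaling to the same total (adjusted p = 0.0509).

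**Figure D2:**
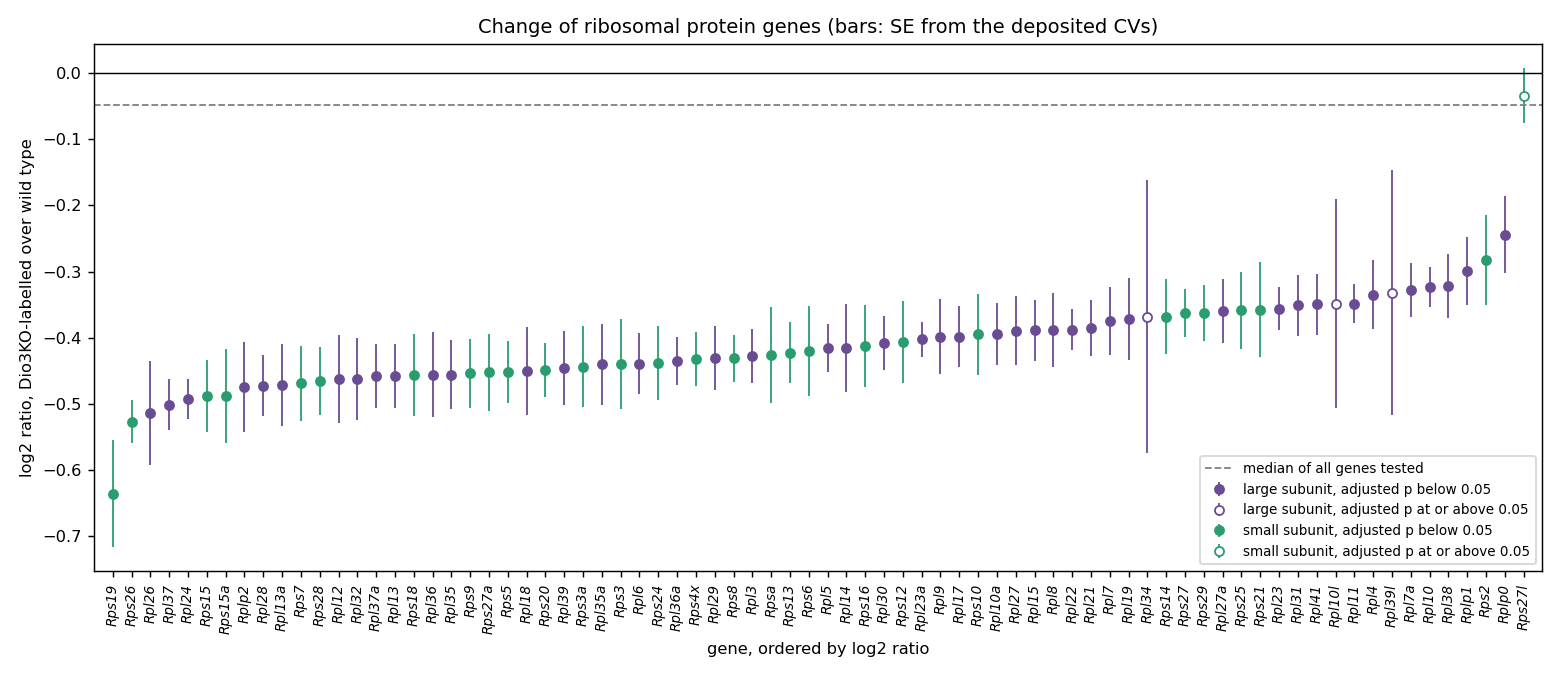
Log2 ratio of the group means, Dio3KO-labelled over wild type, for 76 of the 79 genes in order, with bars of 1 SE. Filled points passed 0.05 by the adjusted p of the authors' deposited table, and the dashed line is the median of all genes tested (-0.05). Between Rps19 at -0.64 and Rplp0 at -0.24 the points form a narrow band, and Rps27l stands outside it at -0.03.

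The 2 subunits differed little. Summed levels in the Dio3KO-labelled group were 75.7% of wild type for the large subunit and 74.2% for the small subunit. The ratio of large to small sums was 1.33 in the Dio3KO-labelled group and 1.30 in wild type. Without paralogs the median log2 ratio was -0.41 over 46 large-subunit genes and -0.44 over 30 small-subunit genes, and the ranges overlapped. The SD of the log2 ratio over these 76 genes was 0.06, close to the median SE of a single gene, 0.05. Of the 76, 65 lay within 2 SE of their common median. The other 11 were Rps19, Rps26 and Rpl24 below it, and Rpl23, Rpl11, Rpl7a, Rpl10, Rpl38, Rplp1, Rplp0 and Rps2 above it. All genes were measured in the same samples and can share errors, so these SEs do not measure the scatter between genes. Over all genes tested the SD was 0.38, and over the other genes of at least 100 RPKM it was 0.41. The size of the fall was not ordered by level: across the 76 genes Spearman's rho between log2 ratio and mean level was 0.07, a description over genes that share libraries. No difference between the subunits was tested, since genes of a subunit are not replicates.

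Single transcripts were also read. The 80 symbols that matched the naming rule, Rpl3l included, had 123 transcripts, of which 115 fell and 0 rose. The transcripts of Rpl3l were among those that did not pass. Transcripts of a gene share exons and reads. Rps24, with 5 transcripts, had log2 ratios from -0.44 to -0.40, with the highest transcript at 696 RPKM in the Dio3KO-labelled group and 943 RPKM in wild type. A transcript listed under Rps4x far below the other two did not pass, at 82.9 RPKM (CV 0.12) in the Dio3KO-labelled group and 93.1 RPKM (CV 0.16) in wild type. The best expressed Rps4x transcript had 752 RPKM in the Dio3KO-labelled group and 1014 RPKM in wild type and fell.

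Paralogs were compared with the genes they resemble. Rps27l, which p53 is known to activate, was the small-subunit gene that did not pass. Its mean was 136 RPKM (CV 0.05) in Dio3KO-labelled and 140 RPKM (CV 0.03) in wild-type testes, a log2 ratio of -0.03 ± 0.04 (SE, n = 4 per group), and the authors' deposited table gave an adjusted p of 0.4813. Rps27 fell to 876 RPKM (CV 0.03) in the Dio3KO-labelled group, against 1127 RPKM (CV 0.04) in wild type, a log2 ratio of -0.36. Rps27l thus stood at 15.5% of the Rps27 level in the Dio3KO-labelled group and 12.4% in wild type, and the log2 ratios differed by 0.33 ± 0.06 (SE, from the CVs, taking both genes as independent). With all transcripts summed, the log2 of the Rps27l level over that of Rps27 was -3.39 in the Dio3KO-labelled group and -3.72 in wild type, against -2.68 and -3.01 with the best expressed transcripts in the same groups. No test of the difference between both genes' log2 ratios over samples was possible from group means. With the median of other abundant short mRNAs subtracted, a scaling chosen after the data were seen, limma called Rps27l higher (log2 ratio 0.16, adjusted p = 0.0245). The subtracted median was -0.19 and included 43 histone genes. Without them it was -0.11, and subtracting that value was not tried. Rps27l (ENSMUSG00000036781.13) lies on chromosome 9 from 66946086 to 66949516 and Rps27 (ENSMUSG00000090733.6) on chromosome 3 from 90212522 to 90213651 in GENCODE M21. Their coding sequences, shown because this was the pair whose members parted most among those above 1 RPKM, share 194 of 255 bases, with differing bases in capitals.
Rps27l: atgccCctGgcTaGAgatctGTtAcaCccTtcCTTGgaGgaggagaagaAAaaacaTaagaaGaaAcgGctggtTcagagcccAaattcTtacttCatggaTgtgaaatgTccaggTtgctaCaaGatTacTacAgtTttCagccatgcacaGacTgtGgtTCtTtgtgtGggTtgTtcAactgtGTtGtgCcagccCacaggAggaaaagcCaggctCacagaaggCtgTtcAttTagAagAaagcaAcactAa
Rps27: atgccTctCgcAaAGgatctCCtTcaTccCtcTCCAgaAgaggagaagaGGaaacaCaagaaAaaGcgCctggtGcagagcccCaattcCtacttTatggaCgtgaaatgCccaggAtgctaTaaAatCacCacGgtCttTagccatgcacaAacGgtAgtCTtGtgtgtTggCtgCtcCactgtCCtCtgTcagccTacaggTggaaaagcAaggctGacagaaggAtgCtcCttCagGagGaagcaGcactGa

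Rpl39l and Rpl10l are known from mouse male germ cells, where they can stand in for the X-linked Rpl39 and Rpl10 when that chromosome is silenced. Rpl39l had 30.3 RPKM (CV 0.14) in Dio3KO-labelled and 38.3 RPKM (CV 0.22) in wild-type testes, a log2 ratio of -0.33 ± 0.19 (SE, n = 4 per group), and the authors' deposited table gave an adjusted p of 0.2432. Rpl39 fell to 623 RPKM (CV 0.06) in the Dio3KO-labelled group, against 849 RPKM (CV 0.05) in wild type, so the paralog was at 4.86% of its level in the Dio3KO-labelled group and 4.50% in wild type. Rpl10l, a gene of 1 exon on chromosome 12, had 15.2 RPKM (CV 0.12) in the Dio3KO-labelled group and 19.4 RPKM (CV 0.19) in wild type, a log2 ratio of -0.35 ± 0.16 (SE, n = 4 per group), and the authors' deposited table gave an adjusted p of 0.1775. Rpl10 fell to 719 RPKM in the Dio3KO-labelled group, against 899 RPKM in wild type, and the paralog was at 2.11% of it in the Dio3KO-labelled group and 2.16% in wild type. With all transcripts of a gene summed, the log2 of the Rpl10l level over that of Rpl10 was -6.51 in the Dio3KO-labelled group and -6.49 in wild type, against -5.52 and -5.50 with the best expressed transcripts in the same groups. The errors of both paralogs were wide. The difference in log2 ratio was 0.11 ± 0.19 for Rpl39l and -0.03 ± 0.16 for Rpl10l (SE, from the CVs). The 8 germ cell markers in the table summed to 375 RPKM in the Dio3KO-labelled group and 397 RPKM in wild type. By the deposited p 0 of them passed, beside 15.8% of all genes tested that fell and 13.8% that rose. Limma called 2 of them higher and 2 lower, against 18.5% of all genes higher and 23.1% lower. The part of germ cells in these levels was not tested. The coding identity with the X-linked gene was 85.3% for Rpl39l and 84.8% for Rpl10l, so reads from the far more abundant gene could reach the paralog. The Rpl39 pair is shown with differing bases in capitals.
Rpl39l: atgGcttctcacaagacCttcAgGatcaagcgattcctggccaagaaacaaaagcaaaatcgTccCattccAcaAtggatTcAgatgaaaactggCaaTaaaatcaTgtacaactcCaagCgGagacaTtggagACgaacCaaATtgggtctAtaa
Rpl39: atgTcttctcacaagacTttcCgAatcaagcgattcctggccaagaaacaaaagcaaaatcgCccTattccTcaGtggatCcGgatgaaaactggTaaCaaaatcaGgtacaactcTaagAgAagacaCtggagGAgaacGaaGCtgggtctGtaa

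Further paralogs lay outside the naming rule. Rpl22l1, which can replace Rpl22 in mice, was the paralog with more RPKM than the gene it resembles. It had 154 RPKM (CV 0.05) in Dio3KO-labelled and 186 RPKM (CV 0.10) in wild-type testes, and the authors' deposited table gave an adjusted p of 0.0824, while limma called it lower (log2 ratio -0.27, adjusted p = 0.0122). Rpl22 fell to 91.4 RPKM (CV 0.03) in the Dio3KO-labelled group, against 120 RPKM (CV 0.03) in wild type, and the authors' deposited table gave an adjusted p of 0.0029. The log2 ratios of Rpl22l1 and Rpl22 differed by 0.12 ± 0.09 (SE, from the CVs, not tested). With all transcripts summed, the log2 of the Rpl22l1 level over that of Rpl22 was 1.75 in the Dio3KO-labelled group and 1.63 in wild type, against 0.75 and 0.63 with the best expressed transcripts in the same groups. Rpl36al and Rpl36a both fell. Rpl36al was at 162 RPKM in the Dio3KO-labelled group and 185 RPKM in wild type, and Rpl36a was at 372 RPKM in the Dio3KO-labelled group and 503 RPKM in wild type. Their log2 ratios differed by 0.25 ± 0.05 (SE, from the CVs, not tested), with 87.9% of coding bases shared. Rpl7l1 was at 60.8 RPKM in the Dio3KO-labelled group and 65.8 RPKM in wild type and did not pass, while Rpl7 fell to 841 RPKM, against 1090 RPKM in wild type. With all transcripts summed, the log2 of the Rpl7l1 level over that of Rpl7 was -3.08 in the Dio3KO-labelled group and -3.32 in wild type, against -3.78 and -4.04 with the best expressed transcripts in the same groups. Rpl3l, the muscle paralog, was near 0 in both groups, at 0.39 RPKM (CV 0.40) in the Dio3KO-labelled group and 0.31 RPKM (CV 0.14) in wild type. The X-linked members Rpl39, Rpl36a, Rps4x and Rpl10 had log2 ratios from -0.45 to -0.32, within the range of the autosomal genes.

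**Figure D3:**
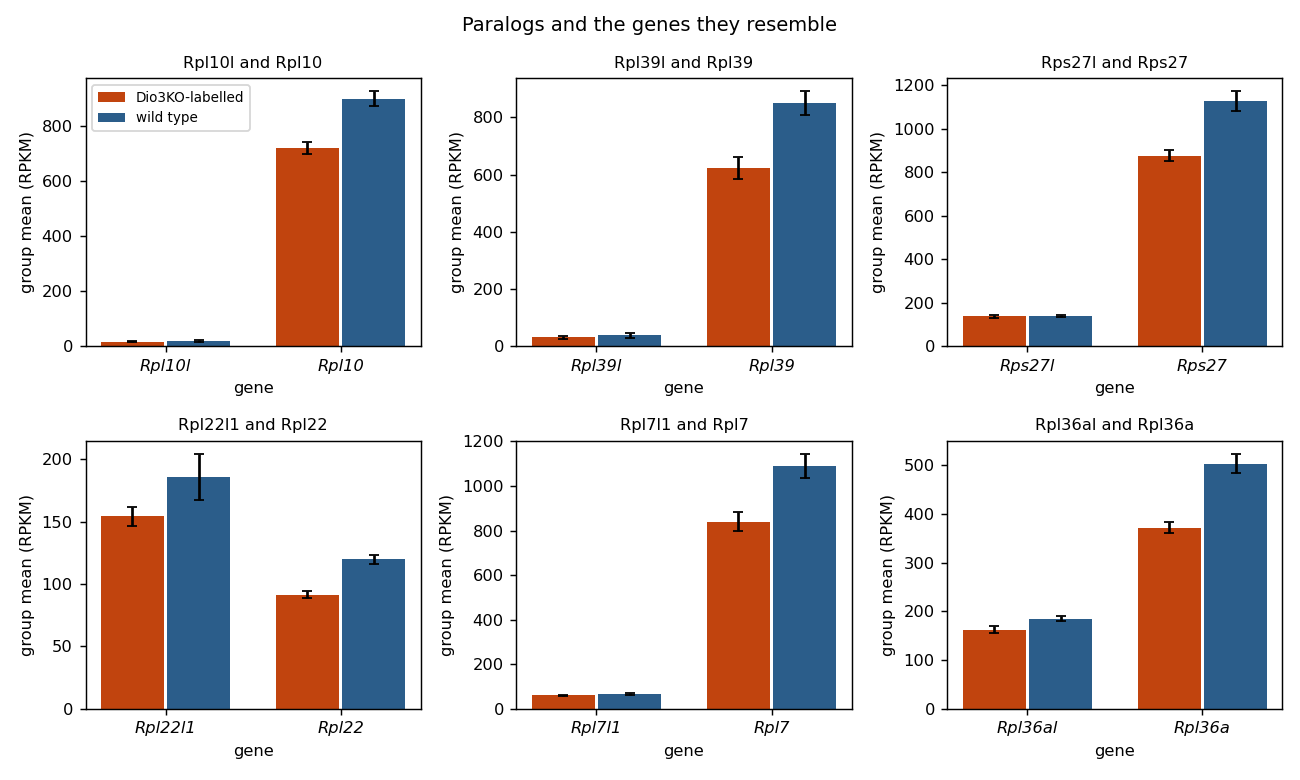
Group means in RPKM of 6 paralogs (left in each panel) and the genes they resemble (right), Dio3KO-labelled left of wild type, with whiskers of the mean times the deposited CV. Each panel has its own linear axis from 0. The right-hand genes are lower in the Dio3KO-labelled group in every panel, while the bars of Rps27l (136 and 140 RPKM) are nearly level.

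Other parts of the ribosome were read beside the 79 genes. Gnb2l1, which encodes the scaffold protein of the small subunit now called Rack1, fell to 576 RPKM (CV 0.05) in the Dio3KO-labelled group, against 785 RPKM (CV 0.05) in wild type, a log2 ratio of -0.45. Fau, whose product includes a small-subunit protein fused to a ubiquitin-like part, fell to 403 RPKM, against 517 RPKM in wild type. Rps27a, which encodes a small-subunit protein fused to ubiquitin, is among the 79 and fell to 479 RPKM, against 655 RPKM in wild type.

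Mitochondrial ribosomal proteins, which serve the separate ribosome of mitochondria, had a median log2 ratio of -0.18. Of 76 genes 14 fell, 0 rose and 62 did not pass, beside the 15.8% of all genes that fell and the 13.8% that rose. The limma test called 35 of them lower and 1 higher, against 23.1% of all genes lower and 18.5% higher. Mrpl14 (15.7 and 20.2 RPKM), Mrpl52 (66.3 and 84.5 RPKM) and Mrps11 (30.5 and 38.3 RPKM; Dio3KO-labelled first in each pair) had the largest falls that passed. Mrpl33 (71.0 and 69.99 RPKM) and Mrps21 (61.8 and 72.4 RPKM, in the same order) did not pass. Their median levels were 28.4 RPKM in the Dio3KO-labelled group and 32.0 RPKM in wild type, with a median wild-type CV of 0.08.

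Of 14 other mRNAs known to carry a TOP tract, 11 fell, 0 rose and 3 did not pass. Beside them, 15.8% of all genes fell and 13.8% rose. Of the other genes of at least 100 RPKM, 25.4% fell and 16.8% rose. The median of their log2 ratios was -0.29. Hnrnpa1, an RNA-binding protein, fell to 307 RPKM (CV 0.07) in the Dio3KO-labelled group, against 439 RPKM (CV 0.06) in wild type. Nap1l1, a histone chaperone, fell to 91.9 RPKM, against 128 RPKM in wild type, and Eef1b2, a subunit of the elongation factor exchange complex, to 133 RPKM, against 174 RPKM in wild type. The elongation factor Eef2 (822 RPKM in the Dio3KO-labelled group and 899 RPKM in wild type) and Eef1d (82.0 and 98.01 RPKM in the same order) did not pass.

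**Figure D4:**
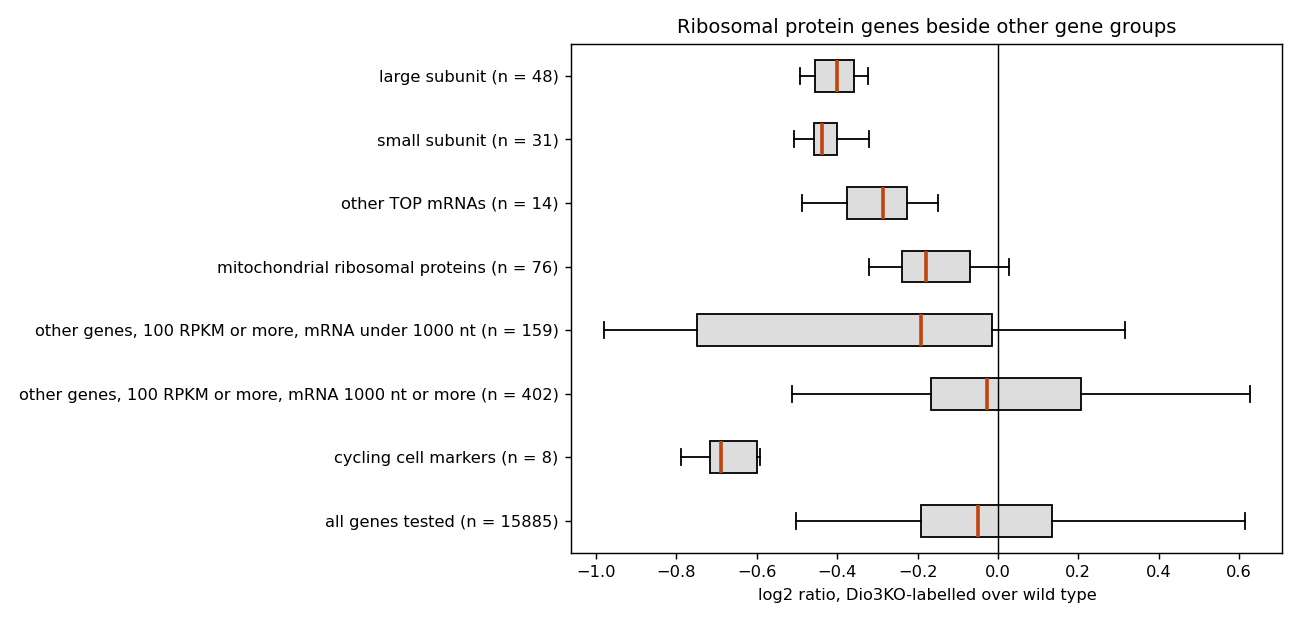
Log2 ratios, Dio3KO-labelled over wild type, of the large and small subunit genes beside other groups. Boxes span the middle 50% of genes with the median as a line, and whiskers run from the 5th to the 95th percentile. The boxes of both subunits are narrow and centred near -0.40 and -0.44, between those of the cycling cell markers (-0.69) and all genes tested (-0.05).

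The TOP tract at the annotated start was more common among the ribosomal protein genes than among all genes. RefSeq start sequences matched 59 of the 79 genes, and 13 of these, 22.0%, had a C at the start followed by at least 4 pyrimidines (C or T), against 3.01% of 27025 genes with a start and 0 of 69 mitochondrial ribosomal proteins. With the first base of any GENCODE protein-coding transcript, a choice made after the data were seen, 22 of 79 had it, 27.8%, against 6.41% of mitochondrial ribosomal protein genes and 5.12% of protein-coding genes. By RefSeq starts the median log2 ratio was -0.42 both in the 13 genes with the tract and in the 46 without it. By GENCODE starts it was -0.44 in the 22 genes with the tract and -0.42 in the 57 without it, and neither difference was tested. Annotated starts can miss the true first base, and a tract that began within 20 bases of the start was found in 81.4% of the 59 genes, in 60.9% of the 69 mitochondrial ribosomal protein genes and in 53.3% of all genes. In the 300 bases around the start (250 before and 50 after), either strand, CCGGAAG was present in 44.1% of the 59 genes, 37.7% of the mitochondrial set and 9.93% of all genes. AAGATGGC was present in 8.47% of the 59 genes, 17.4% of the mitochondrial set and 3.19% of all genes. CACGTG was present in 10.2% of the 59 genes, 7.25% of the mitochondrial set and 8.09% of all genes. These matches describe letters in a window only.

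The genes shared other features that the naming rule did not use. They lie on 18 chromosomes, with 14 on chromosome 7 and 4 on X. Their mRNAs are short, with a median of 771 bases in GENCODE and 61 under 1000 bases. Of these 61, 58 fell, and of the 18 longer ones 17 fell, beside 15.8% of all genes tested. Short abundant mRNAs of other genes were also read: of 159 with at least 100 RPKM, 65 fell and 12 rose, with a median of -0.19. They included 43 genes whose symbols begin with Hist (histones), all of which fell. Without them the median of the other 116 was -0.11 and 22 fell. Longer abundant mRNAs had a median of -0.03. The part of mRNA length in the fall was not tested.

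Of 18 regulators of ribosomal protein mRNAs, 5 fell, 1 rose and 12 did not pass, beside 15.8% of all genes that fell and 13.8% that rose. Mycn, a Myc family transcription factor known to drive ribosome production, fell to 16.9 RPKM (CV 0.07) in the Dio3KO-labelled group, against 25.6 RPKM (CV 0.09) in wild type, a log2 ratio of -0.58. Eif4ebp1, a repressor of cap-dependent translation that mTOR inactivates, fell to 38.7 RPKM, against 54.3 RPKM in wild type. Mtor, the kinase itself, rose to 19.4 RPKM in the Dio3KO-labelled group, against 16.2 RPKM in wild type. The authors' deposited table gave this Mtor transcript an adjusted p of 0.0415, while the gene's other transcript did not pass (0.3899). Eif4e, the cap-binding factor (45.7 RPKM in the Dio3KO-labelled group and 48.2 RPKM in wild type), and Rheb, the GTPase that activates mTOR (39.5 and 42.2 RPKM in the same order), did not pass. Larp1, which binds TOP tracts and was picked out after its value was seen, fell to 23.3 RPKM, against 27.6 RPKM in wild type.

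Free Rpl5 and Rpl11 are known to bind Mdm2 and so stabilise p53 when ribosome assembly is disturbed. Rpl5 fell to 365 RPKM in the Dio3KO-labelled group, against 488 RPKM in wild type, and Rpl11 to 532 RPKM, against 678 RPKM in wild type. Of 10 genes of p53 and its targets above 1 RPKM, 3 rose, 1 fell and 6 did not pass, beside 13.8% of all genes that rose and 15.8% that fell. Their median log2 ratio was -0.03. Sesn2, a stress-induced inhibitor of mTOR signalling, rose to 16.9 RPKM (CV 0.14) in the Dio3KO-labelled group, against 9.50 RPKM (CV 0.14) in wild type. Sesn1 rose to 37.1 RPKM, against 29.6 RPKM in wild type, and the pro-apoptotic gene Bbc3 to 3.33 RPKM, against 2.22 RPKM in wild type. Trp53, the gene of p53 itself and the member that fell, was at 18.6 RPKM in the Dio3KO-labelled group and 21.8 RPKM in wild type. Bax (36.2 RPKM in the Dio3KO-labelled group and 40.4 RPKM in wild type) and Ccng1 (28.4 and 25.3 RPKM in the same order) did not pass. Cdkn1a was below 1 RPKM in both groups.

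Markers of other cells and states moved in the same comparison, in which 15.8% of all genes tested fell and 13.8% rose. All 8 markers of cycling cells fell, with summed levels of 373 RPKM in the Dio3KO-labelled group and 591 RPKM in wild type and a median log2 ratio of -0.69. Of 7 measured macrophage markers 5 rose, with sums of 132 RPKM in the Dio3KO-labelled group and 67.3 RPKM in wild type. Of 5 endothelial markers 3 rose (sums of 57.8 and 47.2 RPKM), and of 6 Leydig cell markers 2 rose (574 and 390 RPKM). Of 8 Sertoli cell markers 2 rose and 5 fell (709 and 710.22 RPKM), and of 4 peritubular markers 1 rose and 1 fell (502 and 560 RPKM; Dio3KO-labelled first in each pair). The part of these cells in the levels of ribosomal protein genes was not tested.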

How the data were processed

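FastQC, Novoalign 2.08 and the build mm10 appear in the submitters' processing notes, whose entries state no role. The read counter, gene annotation, strand handling and statistical test were not given in the sources used here. Per group, the authors deposited a mean RPKM, a CV (the ratio of SD to mean) and, over both groups, an adjusted p-value per transcript, per the file headers. Repeated lines were dropped (147417 to 49139 transcripts), and the transcript with the highest average stood for its symbol. Log2 ratios used 0.5 RPKM as pseudocount, and genes needed a larger mean of at least 1 RPKM. As an alternative, variances from the CVs were shrunk with limma 3.58.1 (squeezeVar, trend, robust) in R 4.3.3. It used 6 residual degrees of freedom, and a CV of 0 was set to 0.0025. P-values were adjusted by Benjamini-Hochberg over all genes. The procedure was run on simulated data in which genes were drawn independently, so that check does not cover errors shared between genes. Coding sequences (GENCODE M21) were aligned globally with Biopython 1.88. Genes named are, per subunit, up to 6 past the threshold with the largest change, the 3 highest and 3 lowest levels, the 2 largest CVs and all paralogs, and from each list up to 3 that passed and 2 that did not. Some genes that this rule names are not reported here. The genes, lists and tests were chosen with earlier results of these data known. The series' design text calls the samples biological replicates. Depth per sample is unknown, so no counting interval was computed.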

Additional observations from a re-analysis of the deposited data

How the results depend on the processing

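No paired analysis was possible because the table holds group means only, and for the same reason no replicate could be left out. All 7 other settings for the count of 79 genes kept it within 1.5 times of 75: limma called 75, 73 after scaling to the same total and 75 after subtracting the median of all genes, and 52 genes had a deposited adjusted p below 0.01. With the median of other abundant short mRNAs subtracted, a setting added after the data were seen, limma called 68 lower and 1 higher, Rps27l, whose log2 ratio turned to 0.16. That median, -0.19, included 43 histone genes and was -0.11 without them, a value that was not subtracted. Scaling to the same total moved the median log2 ratio to -0.32 (large subunit -0.30, small subunit -0.34), and subtracting the short-mRNA median moved it to -0.23 (-0.21 and -0.25). Pseudocounts of 0.1 and 1, other filters and summed transcripts moved no median by more than the spread between samples. Summing all transcripts raised the share of RPKM to 6.69% in the Dio3KO-labelled group and 8.32% in wild type. It moved 9 of 14 paralog ratios by more than the spread, those of Rpl10l, Rps27l, Rpl22l1 and Rpl7l1 in both groups and that of Rpl3l in wild type, and other pseudocounts moved those of Rpl3l. Depth is unknown.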
